A study of Homo sapiens with 12 samples.

Results

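The RNA of 10 genes of mitochondrial and receptor-driven cell death was followed in 22Rv1 cells, an established human prostate cancer line: the survival genes MCL1 and BCL2L1, the BH3-only genes BCL2L11, BBC3, PMAIP1 and BID, the effector genes BAX and BAK1, and the initiator caspase genes CASP9 and CASP8. They were taken by name from the coding (NM) transcripts of the deposited files, and a read in overlapping intervals of a gene counted once, which left 10 of 18650 coding genes. All 10 had reads, and together they held 127195 reads in the 12 libraries, of which 34702 carried a T>C change. Gene editing had given the cells of every group, controls included, the C1111S form of SF3B1. SF3B1 is the SF3b subunit at the branch site of pre-mRNA. The groups were WX-02-23 (20 µM, 3 h), WX-02-43 (20 µM, 3 h), PladB (10 nM, 3 h) and DMSO (0.1% by volume), with 3 libraries each, and 4-thiouridine (100 µM, 1 h) followed in all of them. The labels call WX-02-23 and WX-02-43 stereoprobes. PladB is pladienolide B, a natural product that binds SF3b and inhibits splicing. The labels do not say whether the edited line is a single clone or whether replicates were separate cultures, so p-values measure the spread between these libraries, which may be technical. Cells with unedited SF3B1 were not analysed here.

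The BCL2 family sets the threshold for release of cytochrome c from mitochondria. MCL1 and BCL-XL, the protein of BCL2L1, hold BAX and BAK in check. The BH3-only proteins BIM (BCL2L11), PUMA (BBC3), NOXA (PMAIP1) and BID relieve that restraint, and NOXA binds MCL1 preferentially. Freed BAX and BAK permeabilize the outer membrane, after which caspase-9 is activated on the apoptosome. Caspase-8 acts below death receptors and cleaves BID. MCL1 is alternatively spliced, and skipping of its middle exon, which splicing inhibitors are known to favour, gives a short form that promotes death. MCL1 and NOXA are short-lived proteins with short-lived mRNAs.

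The first sequences are shown because AU-rich sites in 3′ untranslated exons are a known feature of unstable mRNAs. Of the 10 members 4, MCL1, PMAIP1, BCL2L11 and BCL2L1, carried the AU-rich letters TATTTAT there. Searched on the sense strand of 1 transcript a gene in the GENCODE annotation of GRCh38, it occurred 3 times in MCL1, 3 times in PMAIP1, 2 times in BCL2L11 and 1 time in BCL2L1, and 0 times in each of the other 6 members. Of 11728 tested genes with such an exon sequence, 31.9% held it. The 4 members that carried it had 3′ untranslated exons of 1497 to 4480 bases, and the other 6 had 112 to 1442. Each line gives 30 bases with the motif in capitals, around 1 site or, for PMAIP1, around 2 sites. The positions are chr1:150575798-150575827 on the minus strand for MCL1, chr18:59903969-59903998 on the plus strand for PMAIP1, chr2:111166871-111166900 on the plus strand for BCL2L11 and chr20:31664673-31664702 on the minus strand for BCL2L1.
MCL1: agaTATTTATatcaattcctacagctttcc
PMAIP1: tttTATTTATtttgccTATTTATaattaaa
BCL2L11: gagTATTTATtagattcgtaggtcatatta
BCL2L1: ctgTATTTATgtgtgaggagctgctggctt

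The promoters of PMAIP1 and BBC3 are shown because these were the members with the clearest loss of T>C reads after PladB. They are the RefSeq windows of 250 bases before and 50 after the start (GRCh38.p14), which matched 9 of the 10 members, MCL1 being the other. The windows are chr18:59899746-59900045 on the plus strand for PMAIP1 and chr19:47232618-47232917 on the minus strand for BBC3. Capitals mark, on either strand, TGACG (the core of a CRE, in 24.6% of 35116 promoters), GGGCGG (a GC box, 45%), CACGTG (an E-box, 7.26%), TGANTCA (an AP-1 site, 7.71%) and CCAAT (34.6%), and no marked matches overlap.
PMAIP1: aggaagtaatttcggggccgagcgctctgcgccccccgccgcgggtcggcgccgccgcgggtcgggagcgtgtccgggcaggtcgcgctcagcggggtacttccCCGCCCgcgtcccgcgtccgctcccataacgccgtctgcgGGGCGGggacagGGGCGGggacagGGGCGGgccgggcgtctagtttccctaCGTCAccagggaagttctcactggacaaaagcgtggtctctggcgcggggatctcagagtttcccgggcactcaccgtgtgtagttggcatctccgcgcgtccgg
BBC3: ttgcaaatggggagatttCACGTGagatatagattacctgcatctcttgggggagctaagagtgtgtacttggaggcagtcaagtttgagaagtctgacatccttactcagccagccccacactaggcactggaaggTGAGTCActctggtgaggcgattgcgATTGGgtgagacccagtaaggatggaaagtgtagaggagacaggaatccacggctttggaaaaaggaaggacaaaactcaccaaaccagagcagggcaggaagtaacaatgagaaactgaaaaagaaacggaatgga
The PMAIP1 window held 4 GC boxes and 1 CRE core, and the BBC3 window 1 E-box, 1 AP-1 site and 1 CCAAT box. The windows thus shared none of the 5 motifs.

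Library totals ran from 24670716 to 42190854 reads. Coding genes took 12332722 to 21416673 of them, including 826697 to 2094276 T>C reads. A T>C read is a read with a T-to-C change, taken here as RNA made during the labelling hour, and the labelled share is the percentage of a gene's reads that carry one. Over all coding genes this share was 9.64% ± 0.218 after WX-02-23, 9.10% ± 0.277 after WX-02-43, 5.44% ± 0.191 after PladB and 9.45% ± 0.430 in DMSO (SD, n = 3 each). The share of covered T positions that were converted was 0.811% ± 0.0156 after WX-02-23 and 0.913% ± 0.0364 after WX-02-43. It was 0.318% ± 0.00899 after PladB and 0.706% ± 0.0245 in DMSO (SD, n = 3 each). No library without 4-thiouridine was analysed here. Summed markers of luminal prostate cells were present in every library, at 2365 to 2713 CPM after WX-02-23, 2553 to 2684 CPM after WX-02-43, 3489 to 3724 CPM after PladB and 3014 to 3268 CPM in DMSO. The 4 basal markers summed to at most 3.41 CPM, and 2 of them, KRT5 and TP63, were at 0 in all 12 libraries. The 4 neuroendocrine markers summed to 20.3 to 48.6 CPM, and SYP alone had 17.1 to 43.2 CPM. The 4 immune markers summed to at most 10.2 CPM and the 4 fibroblast markers to at most 26.4 CPM.

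Values of a gene are CPM on the fitted scale: T>C CPM is scaled to the T>C reads of a library, and all-read CPM to its reads. A call is an adjusted p under 0.05 over all genes tested with edgeR's quasi-likelihood test. The members differed widely in labelled share, which also depends on how many Ts a read covers. In DMSO it averaged 61.9% ± 6.06 for PMAIP1, 47.4% ± 16.5 for BCL2L11, 43.5% ± 5.08 for BBC3, 26.4% ± 3.21 for MCL1 and 23.6% ± 11.2 for BCL2L1 (SD, n = 3 each). BID followed at 13.7% ± 8.89, BAK1 at 8.79% ± 7.57, BAX at 8.56% ± 14.8, CASP9 at 4.25% ± 5.19 and CASP8 at 4.17% ± 7.22. Neighbours in this order differed by less than their spread, except BBC3 from MCL1. MCL1, BBC3 and PMAIP1 supplied most of the members' T>C reads, with 18319, 7901 and 5983 in the 12 libraries, whereas BAX had 55.

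Relative to the T>C reads of each library, whose share of all reads fell, PladB changed 3 members: MCL1 was higher and the BH3-only genes BBC3 and PMAIP1 were lower. Relative to all reads MCL1 was not called in T>C reads. In all reads PMAIP1 and CASP9 were lower and MCL1 was slightly higher. In the labelled share BBC3 alone passed the test, and it was lower. Of the 9 members tested in T>C reads, 1 rose and 2 fell, where 10.6% of 10722 genes passed the test, 4.72% as higher and 5.91% as lower. Of the 10 tested in all reads, 1 rose and 2 fell, where 30.1% of 13178 genes passed, 13.9% as higher and 16.3% as lower. Of the 10 tested in the labelled share, 1 fell, where 9.47% of 12320 genes were called, nearly all of them lower (9.46%).

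MCL1, the survival gene with the most reads of the set, lies at hg19 chr1:150547027-150549850 on the minus strand as counted here. It had 1630, 1671 and 1890 T>C CPM after PladB, against 831, 1158 and 1145 T>C CPM in DMSO. Every PladB library was above every DMSO library, as for 10.4% of genes tested (27.9% did not overlap in either direction). The log2 change was 0.73 (SE 0.16, adjusted p = 0.00138), where the median gene changed by -0.36, so MCL1 stood 1.09 above it. The fit expresses T>C reads relative to the library's other T>C reads, and the sign depends on that scale: scaled to all reads, the log2 change of MCL1 was -0.07 (adjusted p = 0.807) and that of the median gene -1.16. The raw counts were 1651, 1255 and 1371 T>C reads after PladB and 1447, 1662 and 1844 in DMSO. The libraries are bulk, so fewer cells with a transcript and less of it per cell cannot be told apart.

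In all reads MCL1 had 477, 388 and 481 CPM after PladB, against 357, 367 and 402 CPM in DMSO, and the groups overlapped. The log2 change of 0.26 (SE 0.10, adjusted p = 0.0445) was close to the threshold and was no longer called in 12 of 19 alternatives, among them a fit to the 6 libraries compared (adjusted p = 0.0767) and the fits without DMSO replicate 1 (0.162), PladB replicate 1 (0.192) or PladB replicate 3 (0.211). Its labelled share was 19.3, 23.8 and 20.7% after PladB and 22.8, 29.02 and 27.3% in DMSO. These ranges overlapped, and the log2 change of the odds was -0.41 (SE 0.25, adjusted p = 0.33), where the median gene changed by -1.27. Both MCL1 isoforms of the annotation end in the same counted interval, so the long and short forms were not separated.

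BCL2L1, which codes for BCL-XL, had 51.3, 3.99 and 84.1 T>C CPM after PladB and 23.5, 84.3 and 34.8 T>C CPM in DMSO. The libraries of each group were far apart, and the log2 change of -0.03 had a 95% interval from -2.25 to 2.19. Its all-read CPM, 21.1 ± 2.29 after PladB and 18.8 ± 5.58 in DMSO (SD, n = 3 each), differed by less than the spread (log2 change 0.17, adjusted p = 0.736).

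**Figure D1:**
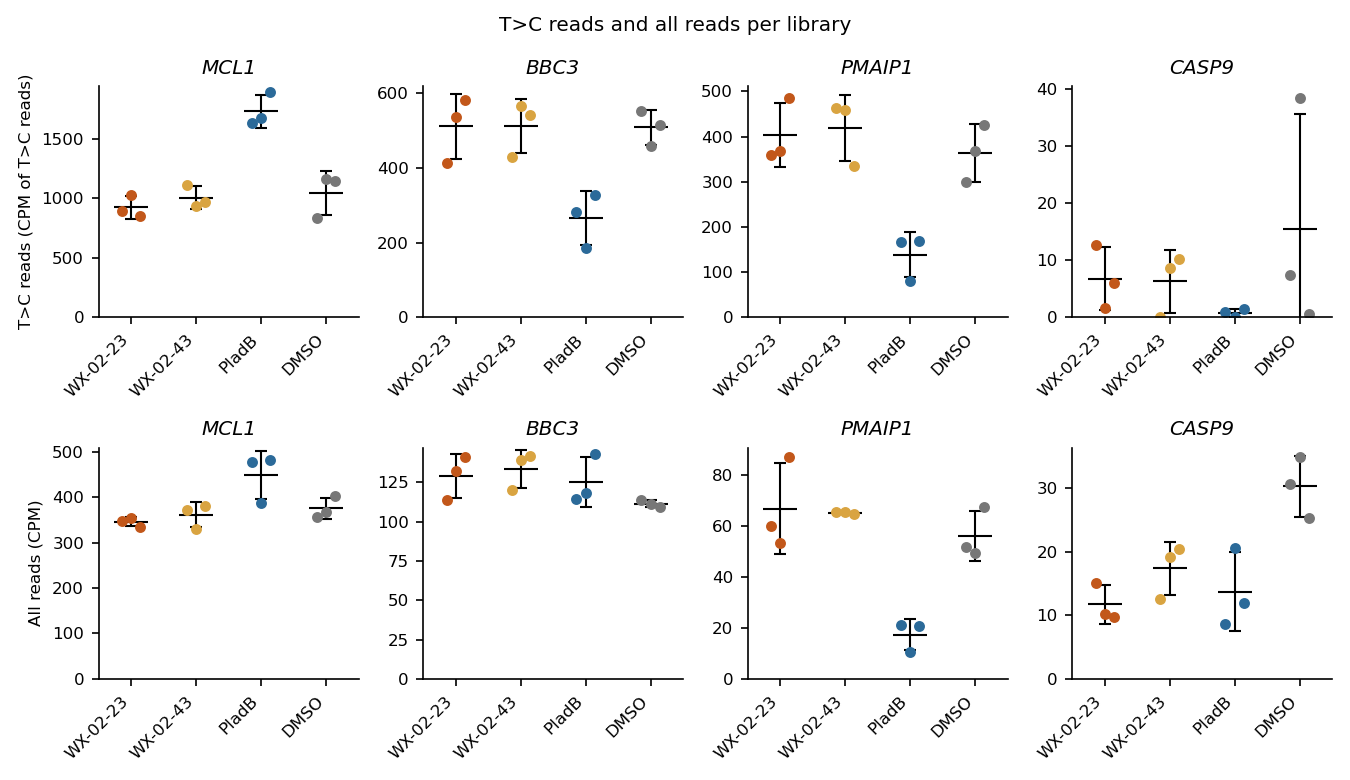
T>C reads (upper row, CPM of T>C reads) and all reads (lower row, CPM) of MCL1, BBC3, PMAIP1 and CASP9 in each library, with points for libraries and bars for the mean and SD of 3, cut at 0. The PladB libraries lie above DMSO for MCL1 and below it for BBC3 and PMAIP1 in the upper row, and for CASP9 in the lower row all 3 compounds lie below DMSO.

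PMAIP1 codes for NOXA and is a gene of 2 exons, and its counted interval lies at hg19 chr18:57569986-57571538 on the plus strand. It had 166, 81.2 and 168 T>C CPM after PladB, against 298, 367 and 425 T>C CPM in DMSO. All 3 PladB libraries lay below the lowest DMSO library, as for 17.4% of genes tested. The log2 change was -1.39 (SE 0.28, adjusted p = 0.000572). That is 1.03 below the median gene, and 28.5% of genes tested lay lower still. In all reads the gene had 21.0, 10.5 and 20.7 CPM after PladB and 51.8, 49.3 and 67.3 CPM in DMSO, a log2 change of -1.68 (SE 0.22, adjusted p = 1.56e-07) that was lower than that of all but 8.11% of genes tested. Its total RNA thus fell along with its newly made RNA. The labelled share was 44.4, 42.7 and 43.0% after PladB and 56.5, 68.4 and 60.6% in DMSO. The groups did not overlap (exact two-sided permutation p = 0.1, the smallest that 3 against 3 allows), but the change of the odds, -1.09 (SE 0.63, adjusted p = 0.304), was not called and lay close to the median gene.

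BBC3 codes for PUMA, and its counted interval lies at hg19 chr19:47724079-47725058 on the minus strand. It had 281, 186 and 327 T>C CPM after PladB, against 551, 459 and 515 T>C CPM in DMSO. No PladB library reached the lowest DMSO library, as for 17.4% of genes tested. The log2 change was -0.94 (SE 0.23, adjusted p = 0.00555). That is 0.58 below the median gene, and 36.4% of genes tested lay lower still. All reads did not pass the test: they were at 114, 118 and 143 CPM after PladB and 114, 111 and 109 CPM in DMSO (log2 change 0.17, SE 0.13, adjusted p = 0.377). The labelled share was 13.9, 8.73 and 12.05% after PladB, against 47.6, 37.8 and 45.2% in DMSO. The log2 change of the odds was -2.58 (SE 0.41, adjusted p = 0.000999), which is 1.31 below the median gene, and it was called in all 15 alternatives. T>C reads of both BBC3 and PMAIP1 thus fell, and the total reads of PMAIP1 fell too. Whether the genes differ in their change of all reads was not tested.

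Among the other BH3-only members, BCL2L11, the BIM gene, had 65.2, 95.9 and 53.8 T>C CPM after PladB and 54.0, 75.3 and 135 T>C CPM in DMSO. The ranges overlapped (log2 change -0.30, SE 0.62, adjusted p = 0.845). Its outermost counted interval spans introns, but 2967 of its 3211 reads fell in the last 3′ intervals at hg19 chr2:111921724-111926022. BID, the link from caspase-8 to mitochondria, had 0 T>C reads in all 3 PladB libraries and 26, 9 and 22 T>C reads in DMSO. On 349 PladB reads, 0 T>C reads allow a labelled share of up to 0.860%. With a floor of 3 reads a library, the T>C CPM was at least 3.14-fold below the DMSO mean. Both bounds cover counting error only and leave out the spread between libraries. The change did not pass the test in T>C reads (adjusted p = 0.183) or in the labelled share (adjusted p = 0.127). The gene also varied widely within a group: after WX-02-23 it had 38, 0 and 0 T>C reads.

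The effector genes were thinly covered. BAK1 had 0 T>C reads in all 3 PladB libraries, against 1, 20 and 25 in DMSO. By counting error alone, 0 of 251 reads allows a share of up to 1.20%. The floor of 3 reads a library, 3.70 CPM, is 2.71-fold below the DMSO mean of 10.0 T>C CPM. The lowest DMSO library, at 0.574 T>C CPM, lay below that floor, so no fold change is bounded for BAK1. It was not called (adjusted p = 0.132 in T>C reads, 0.157 in the labelled share and 0.126 in all reads), although DESeq2 called it in T>C reads. All reads of BAK1 were 3.79, 4.57 and 8.80 CPM after PladB and 12.2, 8.39 and 14 CPM in DMSO, which overlapped, and 19.5% of its reads were multimapping. BAX passed no filter in T>C reads, with 0, 0 and 1 after PladB and 19, 0 and 0 in DMSO. Its all reads averaged 7.43 ± 4.05 CPM after PladB and 4.95 ± 1.16 CPM in DMSO (SD, n = 3 each; adjusted p = 0.480).

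CASP9 codes for the caspase of the apoptosome, and its counted interval lies at hg19 chr1:15817896-15819437 on the minus strand. It had 8.57, 20.6 and 11.9 all-read CPM after PladB, against 30.6, 34.8 and 25.4 CPM in DMSO. Each PladB library was below each DMSO library, as for 21.7% of genes tested (40.9% did not overlap in either direction). The log2 change was -1.15 (SE 0.33, adjusted p = 0.00602). Without PladB replicate 1 it was -0.90 and no longer called (adjusted p = 0.0566). T>C reads were too few to follow it in new RNA: 1, 0 and 1 after PladB and 13, 55 and 1 in DMSO (adjusted p = 0.332). CASP8, the caspase of death receptors, had 6.81 ± 3.42 all-read CPM after PladB and 6.82 ± 3.48 CPM in DMSO (SD, n = 3 each), a log2 change of 0.00 with a 95% interval from -1.110 to 1.104. Its T>C reads were 2, 0 and 0 after PladB and 10, 0 and 0 in DMSO.

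**Figure D2:**
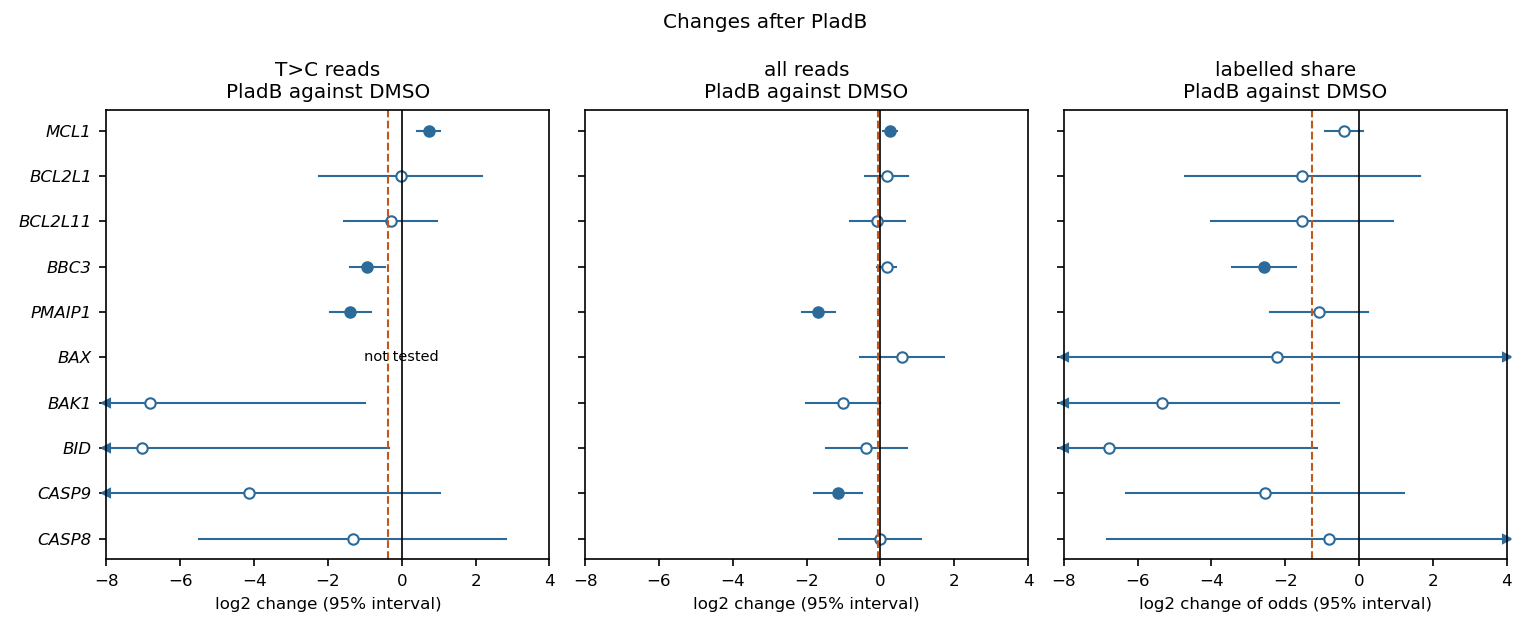
Log2 change of each member after PladB against DMSO in T>C reads, in all reads and in the odds of a T>C read, with 95% intervals; filled points were called, arrows mark intervals that run past the axis, and the dashed line is the median of all genes tested. BBC3 and PMAIP1 lie left of 0 and MCL1 right of it in T>C reads, PMAIP1 and CASP9 lie left of 0 in all reads, and the fitted values of BAK1 and BID rest on 0 T>C reads after PladB.

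**Figure D3:**
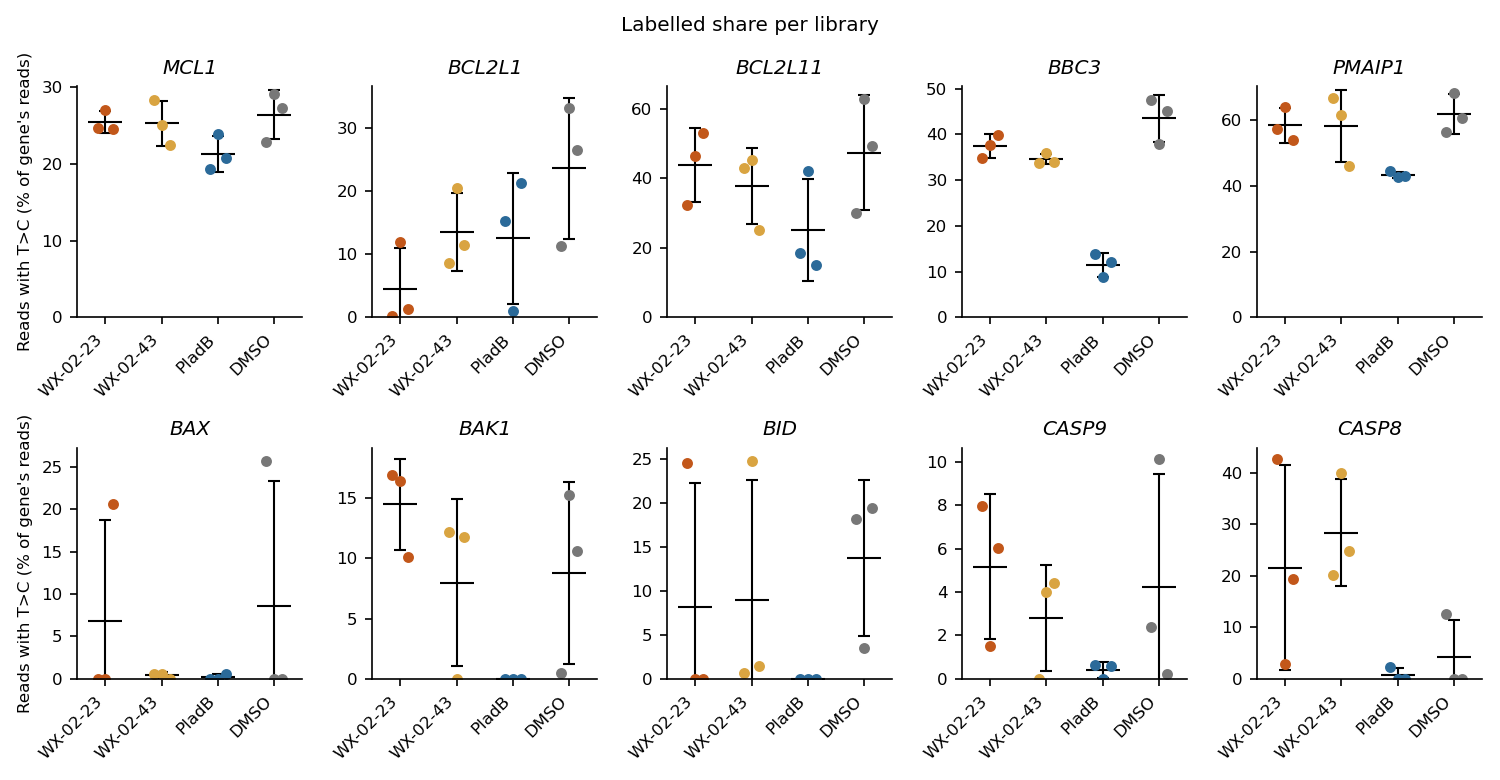
Labelled share (percent of a gene's reads with a T>C change) of the 10 members in each library, with points for libraries and bars for the mean and SD of 3, cut at 0. The BBC3 shares after PladB, 8.73 to 13.9%, lie far below the 37.8 to 47.6% of DMSO, while the shares of BAX, BID and CASP8 scatter from 0 upward within groups.

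By library, the labelled shares of 4 members (BBC3, PMAIP1, BAK1 and BID) lay wholly below DMSO after PladB and none lay above, where 29.2% of genes had groups that did not overlap. By the share of T positions converted the number was also 4, where 32.8% of genes stood apart. The share fell over coding genes as a whole, so the members' median log2 change of the odds, -1.89 over 10 members, stands beside -1.27 over all genes. The same medians in all reads were -0.05 for the members and -0.07 for all genes.

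The wider death pathway was read with 36 further genes, all present in the files. In all reads 3 of the 34 tested rose after PladB and 9 fell, beside 13.9% and 16.3% of all genes, with a median log2 change of -0.15 beside -0.07. In T>C reads 2 of 31 rose and 3 fell, beside 4.72% and 5.91%, with a median of -0.11 beside -0.36. In the labelled share 2 of 33 fell, beside 9.46%, with a median of -0.86 beside -1.27. Only the call of CFLAR was left in the share in 10 of 15 alternatives. In the anti-apoptotic list, which holds 4 genes beside the members, BCL2 and BCL2L2 fell in all reads. BCL2L2, the BCL-w gene, had 12.7, 9.06 and 15.6 CPM after PladB and 36.0, 30.4 and 34.1 CPM in DMSO (log2 change -1.42, adjusted p = 6.36e-05), and BCL2 changed by -1.28 (adjusted p = 0.0339), a call lost without DMSO replicate 1 or PladB replicate 3. MCL1 was thus the 1 survival gene of the 5 tested that was called higher in all reads, a call kept in only 7 of 19 alternatives.

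Of the 4 further BH3-only genes, BAD rose in all reads, by 0.57 (adjusted p = 0.00762), and was not called without DMSO replicate 2. BMF had 0 T>C reads in every PladB library, against 34, 78 and 40 in DMSO, and was called lower (adjusted p = 0.00510). By counting error alone, its T>C CPM was at least 8.9-fold below the DMSO mean, a bound that leaves out the spread between libraries. BMF also had 0 T>C reads on 100 reads in WX-02-43 replicate 2, against 112 and 53 T>C reads in replicates 1 and 3 of that group. Its labelled share was called too (adjusted p = 0.0399), but not in 10 of the 12 fits that left out a library. The third effector, BOK, had 0, 0 and 11 T>C reads after PladB and 0, 29 and 56 in DMSO and was not called. The caspase list also gave 4 further genes, of which 3 were tested in all reads and 0 were called after PladB. CASP2, the one with the most T>C reads, had 128 ± 14.5 all-read CPM after PladB and 106.9 ± 12.03 CPM in DMSO (SD, n = 3 each; log2 change 0.26, adjusted p = 0.158).

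Of the 6 apoptosome and mitochondrial genes, CYCS, which codes for cytochrome c, rose in all reads by 0.47 (SE 0.09, adjusted p = 4.97e-05). In T>C reads CYCS rose by 0.95 (adjusted p = 0.0160), a call lost without DMSO replicate 1, DMSO replicate 2 or PladB replicate 2, and it was 0.16 when scaled to all reads. Among the 5 IAP genes, whose proteins restrain caspases or, for survivin, also serve mitosis, XIAP, BIRC2 and BIRC6 fell in all reads by 0.49, 0.77 and 2.01 on the log2 scale (adjusted p = 0.00418, 0.00297 and 0.00357), and the call of XIAP was lost without PladB replicate 2. BIRC5, the survivin gene, rose in T>C reads, with 1016, 833 and 837 CPM after PladB and 351, 296 and 426 CPM in DMSO (log2 change 1.32, adjusted p = 2.88e-05). Scaled to all reads that change was 0.53 (adjusted p = 0.0972). Its all reads differed little, at 187, 178 and 193 CPM after PladB and 174, 187 and 166 CPM in DMSO.

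Death receptor genes were lower where they were called. CFLAR, which codes for the caspase-8 inhibitor c-FLIP, had 0, 1 and 0 T>C reads after PladB, against 155, 212 and 85 in DMSO, although 807, 617 and 614 reads of the gene remained after PladB (1259, 1604 and 1009 in DMSO). It fell in T>C reads (adjusted p = 5.37e-07), in all reads (log2 change -0.79, adjusted p = 0.000529) and in the labelled share (adjusted p = 6.04e-05). RIPK1, a kinase of the receptor complex, had 8.13, 3.24 and 8.73 all-read CPM after PladB and 36.1, 49.8 and 41.2 CPM in DMSO (log2 change -2.65, adjusted p = 7.77e-10). Its T>C reads, 0, 0 and 8 after PladB and 63, 174 and 59 in DMSO, were also called (adjusted p = 0.00715), but not without DMSO replicate 2. TNFRSF10B, the TRAIL receptor DR5, fell by 0.94 in all reads (adjusted p = 0.000670), and the other 5 genes of the 8 were not called. Of the 4 genes that set MCL1 protein turnover, the ubiquitin ligase genes FBXW7 and BTRC moved in opposite directions in all reads, by 0.86 (adjusted p = 0.00118) and -2.45 (adjusted p = 7.63e-08). USP9X and HUWE1 were not called.

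**Figure D4:**
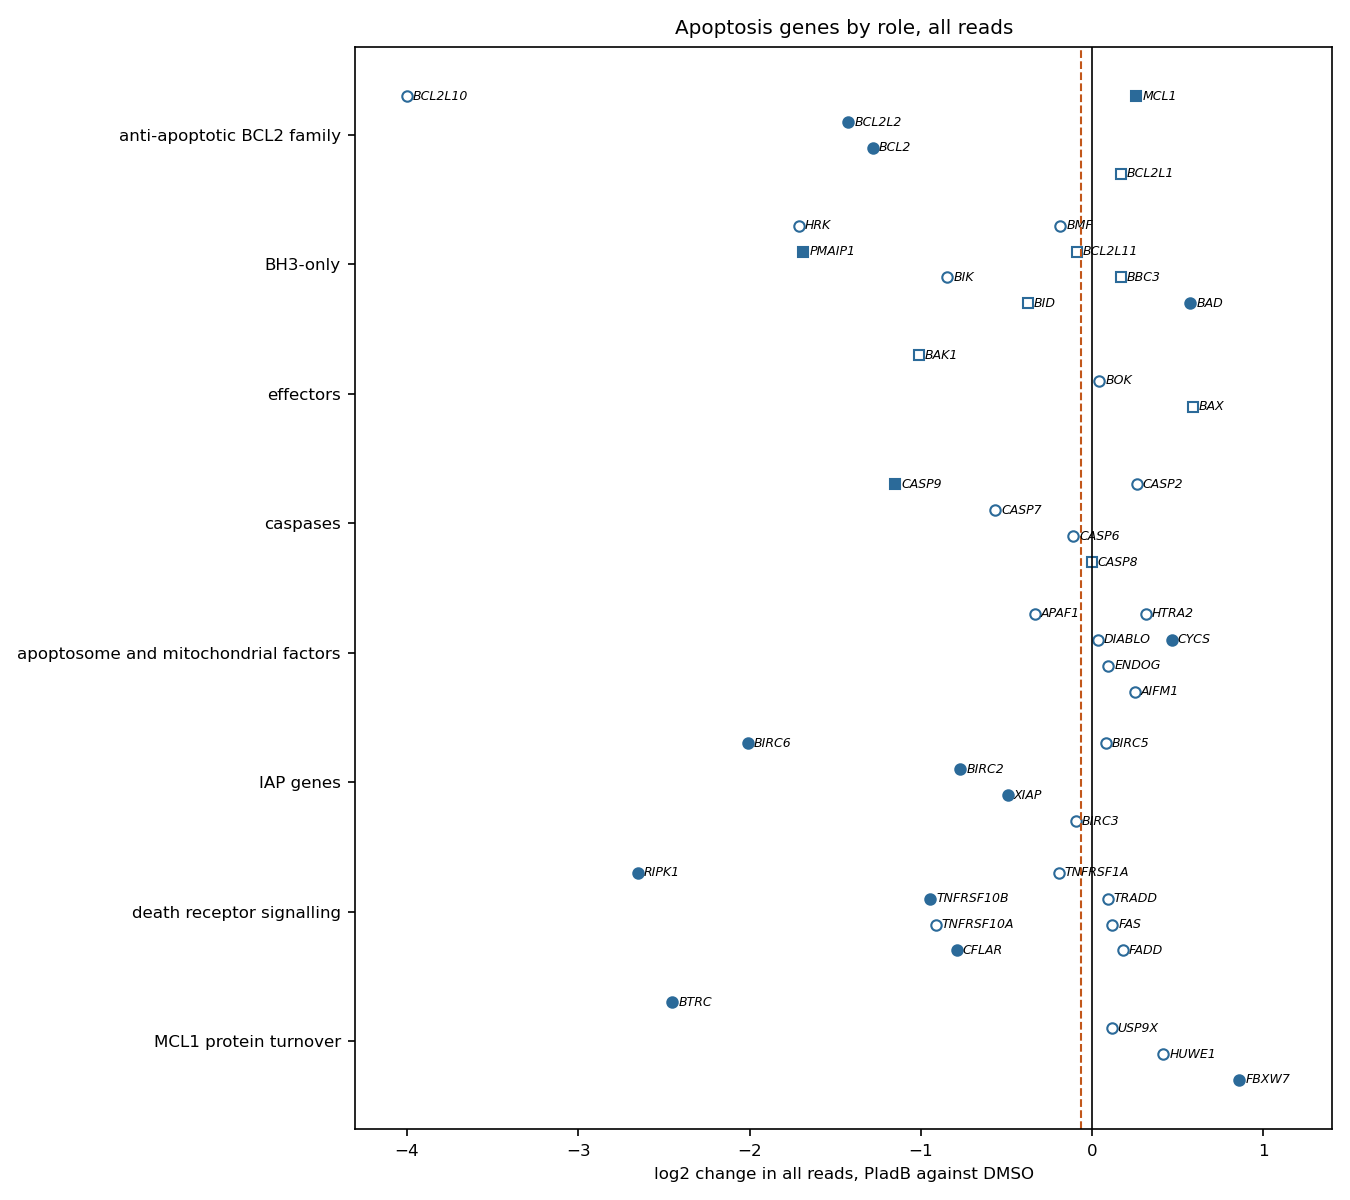
Log2 change in all reads after PladB against DMSO for the tested genes of the 8 lists of death genes; squares are members, circles are other genes, filled symbols were called, and the dashed line is the median of all genes tested. RIPK1 and BTRC lie farthest left among called genes, and the called genes on the right are MCL1, BAD, CYCS and FBXW7.

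After WX-02-23 the deeply covered members MCL1, BBC3 and PMAIP1 lay close to DMSO in T>C reads, CASP9 was lower in all reads, and the thinly covered members had intervals too wide to place them. In T>C reads 0 of 9 members were called, where 0.224% of genes were, 0 had an unadjusted p under 0.05, and DESeq2 also called 0. In the labelled share 0 of 10 were called (1 gene of all tested, 0.00812%), and 1, BCL2L1, had an unadjusted p under 0.05. In all reads CASP9 fell, 1 of 10 members, where 0.698% of genes were called and 0.273% were lower. CASP9 had 15.1, 10.2 and 9.75 all-read CPM after WX-02-23, against 30.6, 34.8 and 25.4 CPM in DMSO. All 3 libraries were below DMSO, as for 6.96% of genes tested (13.9% did not overlap in either direction). The log2 change was -1.37 (SE 0.33, adjusted p = 0.0310). The adjusted p was above the threshold without DMSO replicate 1 (0.0879), DMSO replicate 2 (0.164), WX-02-23 replicate 2 (0.158) or WX-02-23 replicate 3 (0.198). Its T>C reads were 27, 2 and 10 after WX-02-23 and 13, 55 and 1 in DMSO, and no change was called in them.

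For the deeply covered members the log2 change of T>C reads was -0.18 for MCL1 (95% interval -0.49 to 0.14), 0.01 for BBC3 (-0.46 to 0.47) and 0.15 for PMAIP1 (-0.39 to 0.69). MCL1 had 892, 1031 and 849 T>C CPM after WX-02-23 and PMAIP1 358, 368 and 485, and both ranges overlapped those of DMSO. Other members had large fitted changes with wide intervals that included 0: in T>C reads BCL2L1 changed by -2.16 (-4.49 to 0.17) and CASP8 by 3.13 (-0.91 to 7.17), and in all reads BID changed by -1.06 (-2.18 to 0.05). BCL2L1 had labelled shares of 0.292, 11.99 and 1.37% after WX-02-23, against 11.3, 33.1 and 26.4% in DMSO, and the ranges overlapped by 1 library (log2 change of the odds -3.73, SE 1.58, unadjusted p = 0.0303, adjusted p = 1). By the share of covered T positions that were converted, BCL2L1 had 0.0155, 0.688 and 0.0824% after WX-02-23, against 0.864, 3.58 and 1.58% in DMSO. Those groups did not overlap (exact two-sided permutation p = 0.1), and BCL2L1 was the 1 member of 10 for which this held, where 9.93% of genes did. No member had labelled shares wholly above or below DMSO, where 9.62% of genes did. Of the 36 further pathway genes described above, 0 were called in T>C reads, in all reads or in the labelled share. An unadjusted p under 0.05 was found for 1 of 31 in T>C reads (4.53% of all genes tested), 7 of 34 in all reads (8.70%) and 0 of 33 in the labelled share (3.15%). Of the 7 in all reads, 4 were death receptor genes, of which 8 were tested. In all reads TNFRSF1A, TNFRSF10A or both were called in 5 of 19 alternatives, among them DESeq2 (TNFRSF1A), and without 1 library the count was 0 to 2, with 1 without DMSO replicate 3 and 2 without PladB replicate 2.

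WX-02-43 gave no call among the members. T>C reads called 0 of 9, where 0.0933% of genes were called, all reads 0 of 10 (0.167%), and the labelled share 0 of 10 (0.0% of genes, that is, none). An unadjusted p under 0.05 was found for 0 members in T>C reads, 1 in all reads and 0 in the labelled share, and DESeq2 called 0 in T>C reads and 0 in all reads. The 1 member was again CASP9, which had 12.6, 19.2 and 20.4 all-read CPM after WX-02-43. All 3 values lay below the 25.4 to 34.8 CPM of DMSO, as for 5.69% of genes tested (11.9% did not overlap in either direction). The log2 change was -0.80 (SE 0.32, adjusted p = 0.721). MCL1 changed by -0.06 in T>C reads (95% interval -0.37 to 0.26), BBC3 by 0.01 (-0.45 to 0.47) and PMAIP1 by 0.20 (-0.34 to 0.75). Of the 36 further pathway genes 0 were called in the 3 readouts or in their alternatives, and an unadjusted p under 0.05 was found for 1 of 31 in T>C reads (3.81% of all genes tested), 6 of 34 in all reads (5.86%), of which 3 were death receptor genes, and 1 of 33 in the labelled share (2.88%).

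In the labelled share by library, 2 members stood apart from DMSO after WX-02-43, where 9.89% of genes did. CASP8 was above, with 20.2, 40.0 and 24.7% after WX-02-43 and 12.5, 0 and 0% in DMSO, on 84 to 186 reads a library after WX-02-43 and 80 to 169 in DMSO. The CASP8 counts are a sum over 2 separate 3′ intervals, with 46 T>C reads of 62 and 196 of 1375 in the 12 libraries. Whether the mix of these intervals differed between groups was not tested. BBC3 was below, with 33.8, 35.9 and 34.1% after WX-02-43 and 47.6, 37.8 and 45.2% in DMSO. For each the exact permutation p was 0.1, and the fitted adjusted p was 1. BBC3 averaged 512 T>C CPM after WX-02-43 and 508 in DMSO. Its all-read CPM averaged 133 after WX-02-43 and 111 in DMSO and lay wholly above DMSO, as for 6.25% of genes tested. That change in all reads was not called. By the share of T positions converted, PMAIP1 and CASP8 lay wholly above DMSO, 2 of 10 members, where 13.7% of genes stood apart. Of all genes tested, 11.6% lay wholly above and 2.11% wholly below. Over all coding genes this share was also higher, at 0.913% after WX-02-43 and 0.706% in DMSO. CASP8 T>C reads were also scattered after WX-02-23, at 92, 3 and 12.

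WX-02-23 and WX-02-43, at the same dose and time, were compared directly in these readouts as a single pair. No member was called: 0 of 9 in T>C reads, where 0.0466% of genes were, 0 of 10 in all reads (0.152%) and 0 of 10 in the labelled share (0.0%). No member had an unadjusted p under 0.05 in any of the 3 readouts, DESeq2 called 0 in T>C reads and in all reads, and no labelled shares were apart by library, where 9.14% of genes were. CASP9, called after WX-02-23 and not after WX-02-43, differed between them by -0.57 in all reads (95% interval -1.23 to 0.09, adjusted p = 0.948), so a difference between the compounds was not shown. BCL2L1 differed by -1.58 in T>C reads (95% interval -3.88 to 0.71) and by -2.77 in the odds of a T>C read (-6.05 to 0.51, unadjusted p = 0.0925, adjusted p = 1). Its converted T positions, 0.0155, 0.688 and 0.0824% after WX-02-23 and 1.24, 2.64 and 1.53% after WX-02-43, did not overlap (exact two-sided permutation p = 0.1), which held for 1 of 10 members and 10.7% of genes. Of all genes tested, 7.95% lay wholly lower after WX-02-23 and 2.74% wholly higher. Over all coding genes the converted share was 0.811% after WX-02-23 and 0.913% after WX-02-43. In T>C reads the interval for WX-02-23 over WX-02-43 ran from -0.44 to 0.19 for MCL1, from -0.47 to 0.46 for BBC3 and from -0.60 to 0.49 for PMAIP1. For BAK1, BID, CASP9 and CASP8 the interval reached at least -3.01 on one side and at least 3.07 on the other, so these libraries set no useful bound. PladB had another dose and was not tested against the stereoprobes, and all 3 comparisons with DMSO share its libraries.

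**Figure D5:**
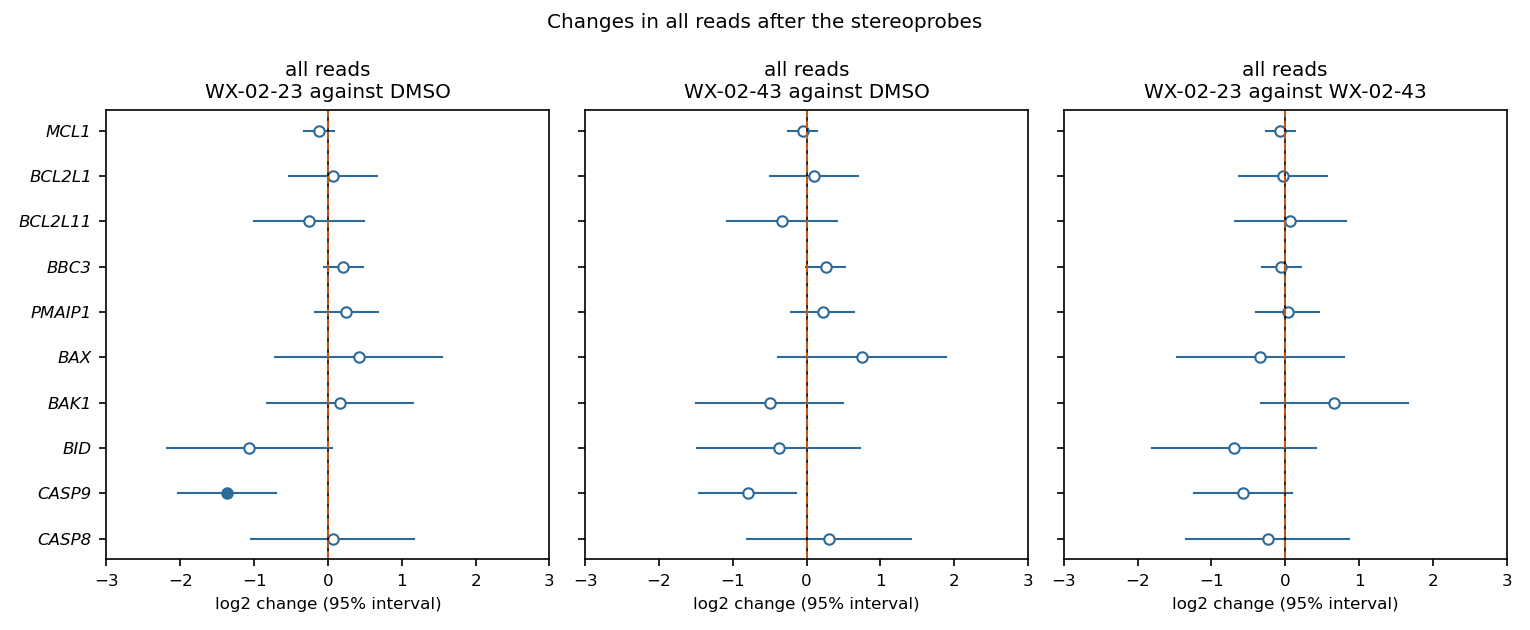
Log2 change of each member in all reads for WX-02-23 against DMSO, WX-02-43 against DMSO and WX-02-23 against WX-02-43, with 95% intervals; filled points were called and the dashed line is the median of all genes tested. CASP9 in the WX-02-23 panel is the 1 filled point, and its interval between the compounds, -1.23 to 0.09, includes 0.

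The genes whose T>C reads followed those of MCL1 most closely over the 12 libraries, by the root mean square difference of log2 T>C CPM (pseudocount 1) from the DMSO mean, were CFL1 (0.121), RPLP0 (0.168), HSPA5 (0.169), YOD1 (0.172) and MANF (0.173). On the scale of T>C reads their log2 changes after PladB were 0.65 for CFL1, 0.74 for RPLP0, 0.85 for HSPA5, 0.89 for YOD1 and 0.63 for MANF. Scaled to all reads these became -0.14 for CFL1, -0.05 for RPLP0, 0.05 for HSPA5, 0.09 for YOD1 and -0.16 for MANF, none of them called. They were chosen for this likeness, so their changes are a description.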

How the data were processed

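Per the labels' protocols, 3′ end libraries (QuantSeq) were made from iodoacetamide-treated RNA. Per the file headers, the authors counted reads with slamdunk 0.4.3 over 3′ intervals of curated RefSeq transcripts, and the submitters' processing notes name hg19. For each interval the authors deposited raw counts of reads, T>C reads, multimapping reads, covered T positions and conversions. They also give CPM, from which library totals were taken, and the deposited conversion rate, a fraction of T positions, was not used. The files held 29255 intervals, of which 5460 were noncoding and 709 spike-ins, and these were not tested. Of 45 names turned into numbers, 44 were restored by accession, and 23 pseudoautosomal chromosome Y intervals were left out. Where intervals of a gene overlapped they were joined, since a plain sum counts over 1.1 times as many reads in 1836 genes.

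Counts were tested with edgeR 4.0.16 (R 4.3.3): a quasi-likelihood fit to 12 libraries, TMM scaling, filterByExpr and Benjamini-Hochberg adjustment over all genes tested. The labelled share was tested as the odds of T>C reads to other reads, with a term for each library and no scaling, in genes with at least 10 T>C reads. DESeq2 1.42.0 and the other settings are given at the end. Intervals are 95%. For mean counts from 20 to 500, the variance between replicates was a median of 14.7 times the mean. Reads carry no molecular identifiers, so floors cover counting error only. The members, the lists and the tests were chosen with earlier results of these data known. One gene of the lists is not reported here, and the counts leave it out. All members are named, as are pathway genes called in a comparison, the gene with the most T>C reads in a list with no call, and the 5 genes most like the member with the most T>C reads.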

Additional observations from a re-analysis of the deposited data

How the results depend on the processing

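Results were recomputed with DESeq2's size factors, with DESeq2, without the count filter, with plain sums over intervals, with the replicate number as a block, on the 6 libraries compared, without each library, with T>C reads scaled to all reads and with at least 50 T>C reads; leaving out multimapping reads was chosen after seeing the data. In T>C reads after PladB, BBC3 ranged from -1.74 to -0.74 and PMAIP1 from -2.19 to -1.12 and both were called in all 19 alternatives, while MCL1 was -0.0675 when scaled to all reads and 0.59 to 0.81 without 1 library. The number of members called in all reads was 0 with plain sums for WX-02-23, 0 to 1 without 1 library for WX-02-23 and 1 to 3 without 1 library for PladB. The cause of these losses was not tested. By the share of T positions converted, 1 member (BCL2L1) stood apart for WX-02-23 against DMSO (9.93% of genes) and 1 (BCL2L1) for WX-02-23 against WX-02-43 (10.7%), against 0 by labelled share, 2 for WX-02-43 (13.7%) and 4 for PladB (32.8%). Same-numbered libraries did not deviate together (correlations from -0.0349 to 0.0341 in T>C reads, and 4 of 12 libraries were closest to their own number); with the replicate block MCL1 was 0.73 in T>C reads, and no call of a member changed. Beyond the members, 2 of the further pathway genes were called in T>C reads after PladB in the 6-library fit, against 5. Depth limits BAX, BAK1, BID, CASP9 and CASP8, which had 55 to 242 T>C reads in 12 libraries.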
